A study of Mus musculus with 3 samples.

Results

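Heat shock proteins and chaperones were examined in type 2 innate lymphoid cells (ILC2s) of the mouse lung. Members were the listed genes whose symbols belong to the Hsp, Dnaja, Dnajb, Dnajc, Cct, Tcp1, Bag and Hsf naming families, a choice made on names and not on levels. The rule found 90 of the 16129 genes listed. ILC2s are lymphocytes without rearranged antigen receptors that respond to epithelial alarmins and make type 2 cytokines. The cells came by flow sorting from wild-type mice treated in vivo with the alarmin IL-33, and all 3 libraries belong to this 1 group. The sources used here do not give the age of the mice, the sorting markers or any pooling of animals, and no untreated group was analysed, so no effect of IL-33 or of the tissue digestion could be measured. Lung pieces had been digested with Liberase and DNase at 37 °C for 15 min before staining and sorting. Levels are in TPM, the share of transcripts after division by transcript length, which allows genes to be compared per length, and errors are the SD over 3 libraries. These libraries may be technical rather than biological replicates.

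The libraries held 19883728 to 19976129 estimated reads, and each pair differed by more than sampling noise (chi-square per degree of freedom 2.48 to 3.47). All 8 ILC2 markers were detected, at 199 to 1064 TPM. Among markers of other cells, 9 macrophage genes summed to 384 to 536 TPM, of which Chil3 gave 375 ± 74.7, above the ILC2 markers Rora (199 ± 7.30), Gata3 (256 ± 4.999) and Klrg1 (356 ± 12.8). The summed level was 8.25 to 12.7 TPM over 5 T cell genes. Summed levels were 28.5 to 33.0 TPM over 5 epithelial genes, 2.73 to 4.91 over 3 neutrophil genes, 2.16 to 2.78 over 4 endothelial genes, 1.63 to 2.60 over 3 B cell genes and 0.27 to 0.45 over 4 fibroblast and smooth muscle genes. No gene of these lists was at 0 in all libraries, and a low level in sorted bulk RNA can mean few such cells or little RNA per cell, which cannot be told apart.

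Chaperones bind unfolded or folding proteins and release them in cycles driven by ATP. HSP70 proteins hold short exposed stretches of a client, J-domain proteins bring clients to HSP70 and start its ATP hydrolysis, and nucleotide exchange factors of the HSP110 and BAG families let the client go. HSP90 matures kinases and steroid receptors, and the ring-shaped chaperonins enclose a client in a chamber. Heat shock factors are the transcription factors that raise a part of these genes, the heat-inducible part, when unfolded protein accumulates. Enzymatic digestion of tissue is known to induce heat shock and immediate early genes in some cell types.

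The chaperone genes were widely and strongly expressed. A gene was called detected when every library reached 1 TPM, which held for 76 of the 90 members (84.4%), against 67.3% of all listed genes. A mean of at least 100 TPM was reached by 27 members (30.0%), against 10.3% of all listed genes. The median member had a mean of 34.3 TPM, against 11.2 TPM for the median listed gene. Together the members took 1.05% ± 0.0151 of all TPM. This output was concentrated in few genes: Hspa8 and Hsp90ab1 together supplied 38.4% of the members' TPM, and the 10 highest members supplied 62.1%.

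The 14 undetected members were mostly specialised forms. Of these, 12 were below 1 TPM in all libraries, namely the divergent HSP70 genes Hspa12a and Hspa12b, the small heat shock protein genes Hspb1, Hspb2, Hspb7 and Hspb8, the chaperonin paralog Cct6b, the J-domain genes Dnajb3 and Dnajb7, and Hsf5, Hsf2bp and Hspg2. Hspg2 encodes perlecan, a basement membrane proteoglycan that only shares the letters of the name. The remaining pair, Hspa1l and Hspb9, passed 1 TPM in replicate 3 only. Just inside the limit stood Dnajc28 (1.09, 1.77 and 1.25 TPM in replicates 1, 2 and 3) and Hspa1a. A further 7 protein-coding RefSeq genes with matching symbols, Cct8l1, Dnajb8, Dnajc22, Dnajc5b, Dnajc5g, Hsf3 and Hspb3, were not analysed here.

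**Figure D1:**
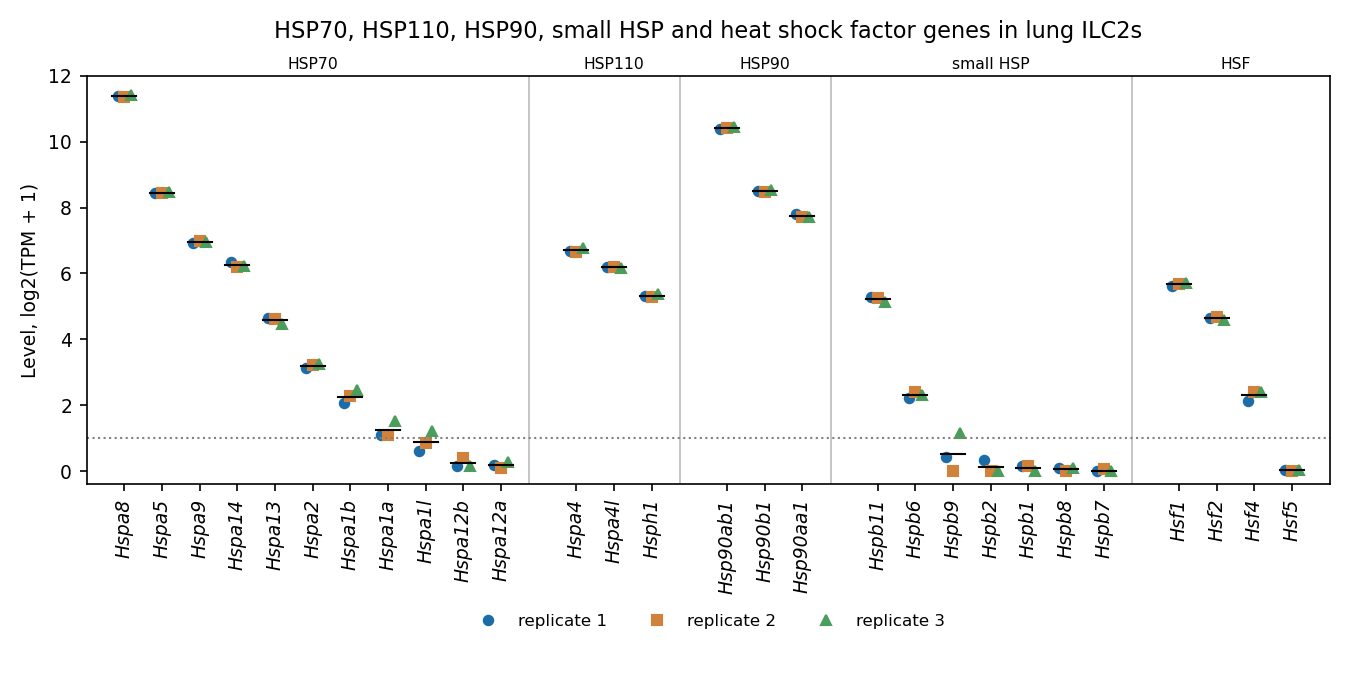
Level of each HSP70, HSP110, HSP90, small heat shock protein (HSP) and heat shock factor (HSF) gene, as log2(TPM + 1) on the vertical axis, with a point per library, a bar at the mean and a dotted line at 1 TPM. Hspa8 and Hsp90ab1 stand highest with nearly coincident points, while Hspa1a, Hspa1b and Hspa1l lie near the dotted line and are highest in replicate 3.

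The HSP70 family was dominated by its constitutive cytosolic member, and the heat-inducible members were close to the detection limit. Hspa1a, a heat-inducible HSP70 gene on chromosome 17 (Entrez gene 193740, 34969359 to 34972156 in GRCm38.p6), had 1.15, 1.15 and 1.85 TPM in replicates 1, 2 and 3. Its near-identical copy Hspa1b (15511, chromosome 17 from 34956429 to 34959238) had 3.17, 3.82 and 4.46 TPM. The constitutive gene Hspa8, which encodes HSC70 (15481, chromosome 9 from 40801276 to 40805202), had 2652, 2619.98 and 2761 TPM and ranked 56th of all listed genes. No library placed the inducible genes anywhere near Hspa8.

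Reads can be divided wrongly between the copies, since 62.3% of the 50-base words of Hspa1b transcripts also occur in Hspa1a, so the pair was summed. The sum was 4.32, 4.97 and 6.31 TPM. Its difference from Hspa8 was -8.77 ± 0.201 on the log2(TPM + 1) scale, a ratio of 0.0023 on the TPM + 1 scale, in 3 of 3 libraries. For this and every other contrast, p was 0.25 by an exact permutation test that flips signs over libraries (two-sided), and 3 libraries allow no smaller value; adjusted over the 9 contrasts made it stayed 0.25. Each of these 9 differences exceeded its SD. Hspa8 transcripts share 67.3% of their 50-base words with other annotated genes, chiefly the pseudogene Gm15459, but none with another listed gene.

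The inducible pair and its neighbour Hspa1l, a mainly testicular HSP70 gene that lies 546 bases from Hspa1a, were compared by library. The pair had 115 estimated reads (95% exact Poisson interval 94.7 to 138) in replicate 1, 130.3 (109 to 155) in replicate 2 and 165 (141 to 192) in replicate 3. These intervals cover counting error only, and those of replicates 1 and 3 do not overlap. Hspa1l had 0.52, 0.79 and 1.33 TPM. Replicate 3 was highest for all 3 genes, as it was for 35 of the 76 detected members. The same share was not counted over all listed genes, so neither count can be called particular to these genes. The 3 genes are not independent, since Hspa1l also shares 9.57% of its 50-base words with Hspa1a. The summed pair had a ratio of replicate 3 to the mean of replicates 1 and 2 of 1.36. The same ratio was 1.05 for Hspa8 and 1.02 for the sum of all members. It was 1.38 for the summed macrophage genes, 9 of 9 of which were highest in replicate 3, 1.44 for the T cell genes, 1.72 for the neutrophil genes, 1.67 for the fibroblast and smooth muscle genes, 1.18 for the endothelial genes, 0.904 for the epithelial genes and 0.744 for the B cell genes. Replicate 3 was highest for 2 of the 3 neutrophil genes, and S100a9 had a ratio of 0.581. The part of other cells in the replicate 3 values of the inducible genes was not tested.

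The organelle forms of HSP70 were the next members. Hspa5, which encodes BiP of the endoplasmic reticulum, had 349.51, 348 and 354 TPM, a log2 difference from Hspa8 of -2.93 ± 0.0254. Hspa9, the mitochondrial mortalin gene, had 119.65, 126 and 124 TPM, a log2 difference from Hspa8 of -4.43 ± 0.0596. In shares of the family's TPM, Hspa8 held 82.0% ± 0.341, Hspa5 10.7% ± 0.144 and Hspa9 3.78% ± 0.148. Below them came Hspa14, a ribosome-associated HSP70 (76.1 ± 4.64 TPM), and Hspa13, a microsomal form (22.9 ± 1.49 TPM). Hspa2, best known from spermatogenesis, was at 8.20 ± 0.321 TPM. The order of these detected HSP70 genes was the same in every library.

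Heat-inducible members were not all low. A list of 11 heat-inducible chaperone genes ranged from Hspe1 at 236 ± 9.22 TPM and Hsp90aa1 at 212 ± 8.35 TPM to Hspb1 at 0.08 ± 0.0693 TPM, with 10 of 11 detected. All 8 genes of a constitutive list were detected, between Dnaja2 (102 ± 5.01 TPM) and Hspa8. The mean log2 level of the inducible list minus that of the constitutive list was -3.43 ± 0.0116, and -2.97 without Hspb1. Both lists were drawn up with earlier results of these data known and give no independent support to a direction.

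Between these extremes stood inducible genes of intermediate level. Dnajb1, the J-domain partner of HSP70 in the heat shock response, had 36.3, 39.7 and 37.2 TPM. Its log2 difference from the constitutive J-domain gene Dnaja2, which had 107, 97.5 and 102 TPM, was -1.41 ± 0.133. Hsph1, which encodes the inducible exchange factor HSP110, had 39.1, 38.1 and 40.6 TPM, and Bag3, a stress-induced BAG gene, had 23.4, 19.2 and 20.3 TPM. Among these 3 genes replicate 3 was highest for Hsph1 only. Dnajb4 followed at 7.02 ± 0.494 TPM.

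Immediate early genes, a second group that dissociation can induce, had a median of 134 TPM. The median of the 11 heat-inducible chaperone genes in the same libraries was 37.8 TPM. The inducible HSP70 pair, which is a sum and not a median, was at 5.20 TPM. All 16 listed genes were detected. Junb led at 1770.5 ± 80.0 TPM, followed by Nr4a1 (542 ± 22.8), Fos (410.4 ± 4.19) and Jund (352 ± 5.89). Atf3 (3.99 ± 0.661) and Ier3 (5.13 ± 0.0625), named after their values were seen, had means below that of the pair. For the summed level of all 16 immediate early genes, replicate 3 stood at a ratio of 1.05 to the other libraries' mean. Whether digestion, IL-33 or the basal state set either group's level was not tested.

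**Figure D2:**
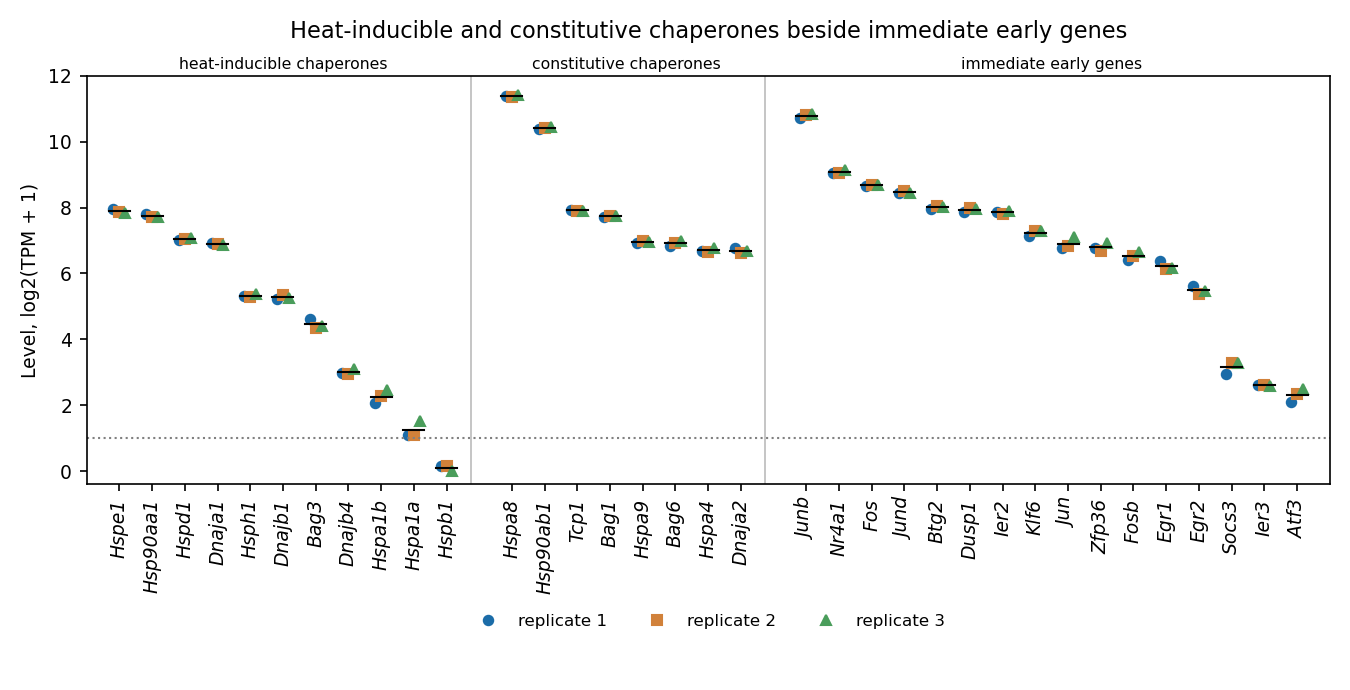
Levels of 11 heat-inducible chaperone genes, 8 constitutive chaperone genes and 16 immediate early genes, as log2(TPM + 1), with a point per library, a bar at the mean and a dotted line at 1 TPM. The inducible list runs from Hspe1 down to Hspb1, all 8 constitutive genes have means above 100 TPM, and 10 of the 16 immediate early genes have a mean of at least 100 TPM.

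Promoters of the inducible genes were inspected for heat shock elements, the inverted repeats bound by heat shock factors. Windows from 250 bases before to 50 bases after the annotated start, from RefSeq on GRCm38.p6, were searched for the 2-unit motifs GAANNTTC and TTCNNGAA, each of which reads the same on both strands. The 3-unit motif, searched on both strands, is GAANNTTC followed by NN and a further GAA, so it contains both 2-unit motifs. A 2-unit motif occurred in 9 of the 10 heat-inducible genes with a window and in 0 of the 5 constitutive genes with one. It occurred in 19 of 74 members (25.7%) and in 1879 of 12762 listed genes (14.7%). The heat-inducible gene without a match was Dnajb1. Of the 8 ring subunit genes of the cytosolic chaperonin CCT, 7 had a window. Among these, 3 (42.9%) held a 2-unit motif, namely Cct2, Cct5 and Cct6a. The 0 of 5 therefore does not extend to all highly expressed chaperone genes. The constitutive genes Hspa8, Hsp90ab1 and Hspa9 and the inducible gene Hsp90aa1 had no window and were not searched. The 3-unit motif occurred in 4 of 74 members (5.41%) and in 68 of 12762 listed genes (0.533%). Its carriers were Hspd1, Hspe1, Hsph1 and Dnajb6. Hspd1 and Hspe1 carry the same letters in their overlapping windows, and the Hspa1a and Hspa1b windows are identical at 98.7% of positions, so the genes are not independent. Of other promoter motifs, TATAAA on either strand occurred in 3 of 74 members (4.05%) against 10.2% of listed genes, and CCAAT on either strand in 31 of 74 (41.9%) against 42.6%.

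The windows of 4 inducible genes of very different level are shown because they carry the motif at opposite ends of the range of levels. Capitals mark the 3-unit motif in Hspe1 and Hsph1 and the 2-unit motif in the others; a separate 2-unit match of Hsph1 is left in lower case. Hspe1 is at 236 TPM and Hsph1 at 39.3 TPM, each with the 3-unit motif. Hspa1a is at 1.38 TPM and Hspb1 at 0.08 TPM, with 2-unit motifs only. Other inducible genes with 2-unit motifs only were Dnaja1 (119 TPM), Bag3 (21.0 TPM), Dnajb4 (7.02 TPM) and Hspa1b (3.82 TPM). Hspd1, with the 3-unit motif, was at 132 TPM. A relation between motif and level was not tested. The 4 windows are written 5′ to 3′ on the strand of the gene and lie at chr1:55087898-55088197 (plus), chr5:149636266-149636565 (minus), chr17:34972107-34972406 (minus) and chr5:135887669-135887968 (plus).
Hspe1: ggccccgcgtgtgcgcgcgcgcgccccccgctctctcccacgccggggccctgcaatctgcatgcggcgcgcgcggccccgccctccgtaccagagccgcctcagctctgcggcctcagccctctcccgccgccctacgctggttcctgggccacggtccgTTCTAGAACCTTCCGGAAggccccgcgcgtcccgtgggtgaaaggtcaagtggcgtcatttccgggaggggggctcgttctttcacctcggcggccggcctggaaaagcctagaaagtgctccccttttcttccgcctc
Hsph1: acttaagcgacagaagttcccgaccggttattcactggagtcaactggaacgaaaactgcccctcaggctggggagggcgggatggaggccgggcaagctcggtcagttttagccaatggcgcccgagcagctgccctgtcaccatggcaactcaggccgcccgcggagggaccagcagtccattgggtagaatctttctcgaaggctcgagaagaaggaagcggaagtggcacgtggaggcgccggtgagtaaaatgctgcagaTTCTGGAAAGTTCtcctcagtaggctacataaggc
Hspa1a: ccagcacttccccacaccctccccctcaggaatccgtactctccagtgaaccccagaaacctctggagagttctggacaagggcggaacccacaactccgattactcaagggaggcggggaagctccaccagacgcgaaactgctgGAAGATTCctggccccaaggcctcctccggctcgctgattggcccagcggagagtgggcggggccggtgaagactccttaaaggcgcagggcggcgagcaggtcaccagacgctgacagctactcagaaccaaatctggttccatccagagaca
Hspb1: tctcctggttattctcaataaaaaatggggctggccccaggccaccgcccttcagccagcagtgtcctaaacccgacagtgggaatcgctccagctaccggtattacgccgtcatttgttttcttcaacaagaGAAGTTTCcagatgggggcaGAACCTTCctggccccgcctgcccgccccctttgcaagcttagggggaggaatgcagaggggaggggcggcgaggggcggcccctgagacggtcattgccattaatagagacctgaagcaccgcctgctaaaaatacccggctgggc
Counted from the annotated start as 0, the motif begins at -104 in Hspa1a and Hspb1 carries copies at -117 and -97. In Hspe1 overlapping 3-unit matches begin at -89 and -84, and in Hsph1 the match lies in the transcribed part, at 15. A match describes the letters and is not evidence of binding.

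The HSP90 genes showed the same order of constitutive over inducible form. Hsp90aa1, the stress-inducible cytosolic gene, had 222, 208 and 207 TPM. Hsp90ab1, the constitutive cytosolic gene, had 1343, 1363 and 1406 TPM. The log2 difference of Hsp90aa1 from Hsp90ab1 was -2.68 ± 0.0851, negative in 3 of 3 libraries. Hsp90b1, which encodes GRP94 of the endoplasmic reticulum and is needed for Toll-like receptors and integrins to fold, had 364, 358 and 369 TPM with a log2 difference from Hsp90ab1 of -1.91 ± 0.0283. The ranges of the 3 genes did not overlap. Hsp90aa1 shares 50.1% of its 50-base words with other annotated genes, mainly pseudogenes, and Hsp90ab1 4.13%, so the level of Hsp90aa1 is the less certain.

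HSP90 works with a set of co-chaperones, and 16 of 16 genes on that list were detected, with a median of 87.1 TPM. The highest were Cdc37, which loads kinases onto HSP90 (357 ± 22.0), Fkbp5 (139 ± 4.36), which is also a glucocorticoid target, Ahsa1, the activator of its ATPase (138 ± 2.43), and Stip1, which links HSP70 to HSP90 (133 ± 8.81). All 7 co-chaperones on a short HSP70 list were detected as well, led by St13 (175 ± 8.80), Stub1, the ubiquitin ligase CHIP (80.8 ± 3.92), Hyou1, an HSP70-like exchange factor of the endoplasmic reticulum (70.9 ± 1.51), and Sdf2l1 (43.1 ± 0.468).

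The cytosolic chaperonin CCT, which folds actin and tubulin, is built from 8 different subunits in each ring. All 8 genes had means above 100 TPM, and together they gave 2096 ± 39.8 TPM. Cct2 was highest at 427, 433 and 440.2 TPM, and Cct6a lowest at 129, 133 and 135 TPM. The highest subunit exceeded the lowest by 3.28 ± 0.0297 times, with 3.31, 3.26 and 3.27 in replicates 1, 2 and 3. The spread among these genes, whose proteins assemble in equal number, was larger than the spread between libraries.

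Between them, Cct5 had 371, 347 and 384 TPM, Cct4 had 301, 296 and 299 TPM, and Tcp1 had 244, 238 and 239 TPM. Cct7 (211, 209 and 212 TPM), Cct3 (212, 199 and 211 TPM) and Cct8 (207, 196 and 213 TPM) overlapped in their ranges and were not separable. The other neighbours in this order did not overlap. Cct6b, a testis-enriched relative of Cct6a, was at 0.43 ± 0.219 TPM. In the GENCODE M21 annotation, exons of Cct6a, Tcp1 and Cct8 overlap those of a listed gene on the opposite strand over 12.5%, 11.4% and 6.22% of their length. The overlapping genes were Psph (35.1 TPM), Acat3 (1.16 TPM) and Usp16 (38.7 TPM), in that order. Tcp1 also overlaps Mrpl18 (129 TPM) over 2.80% of its length. No source used here says whether counting used the strand.

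Helpers of CCT were detected in full, 9 of 9 genes with a median of 58.5 TPM. Prefoldin, which hands nascent actin and tubulin to CCT, was led by Pfdn5 (458 ± 8.57 TPM) and Vbp1 (101 ± 2.44 TPM). Txndc9 (96.5 ± 5.11 TPM) and Pfdn6 (79.9 ± 3.74 TPM) followed.

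The mitochondrial chaperonin consists of the HSP60 ring, encoded by Hspd1, and its lid HSP10, encoded by Hspe1. The genes lie head to head on chromosome 1, Hspd1 from 55077833 to 55088243 and Hspe1 from 55088148 to 55091317 in GRCm38.p6. Hspd1 had 129.87, 131 and 134 TPM. Hspe1 had 247, 234 and 229 TPM. The log2 difference of Hspd1 from Hspe1 was -0.84 ± 0.0779, a ratio of 0.56 on the TPM + 1 scale, in 3 of 3 libraries. This order holds per length only: with reads not divided by length, the difference was 0.83. Both genes share words with pseudogenes, 39.7% for Hspd1 and 36.1% for Hspe1.

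**Figure D3:**
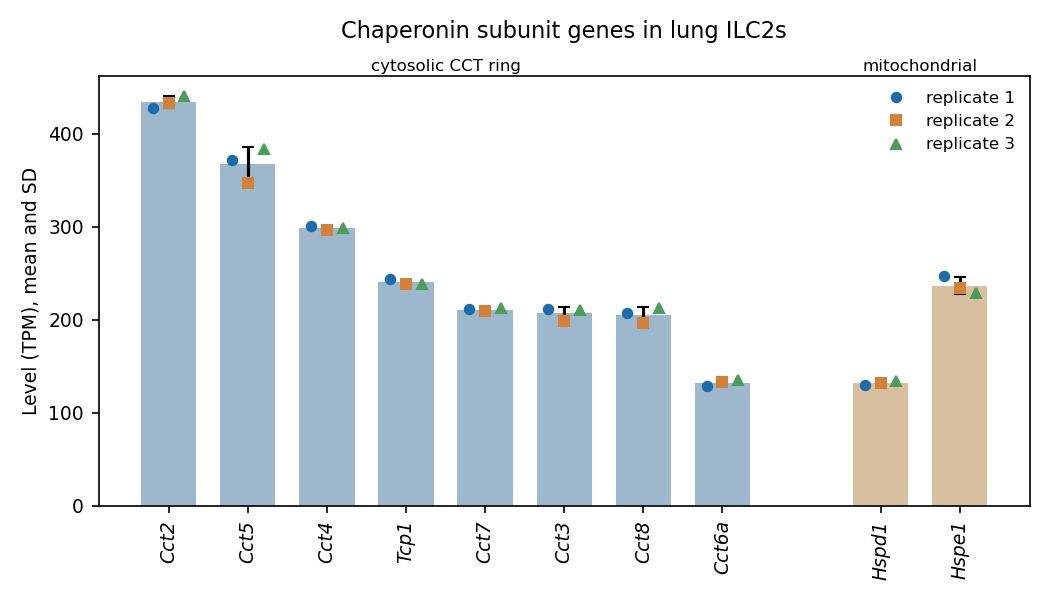
Levels in TPM of the 8 CCT ring subunit genes and of the mitochondrial chaperonin genes Hspd1 and Hspe1. Bars give the mean, error bars the SD over 3 libraries and points the libraries, and the subunits run from Cct2 at 434 TPM to Cct6a at 132 TPM.

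J-domain proteins were the largest group, and 39 of 41 genes were detected. Their summed level was 2080 ± 3.26 TPM, below the 3265 ± 76.3 TPM of the HSP70 genes they serve. All 4 class A genes, which keep the full bacterial domain layout, were detected, led by Dnaja1 at 122, 118 and 116 TPM, followed by Dnaja2. Dnaja4 had 40.9, 41.1 and 42.4 TPM, and 44.1% of its exonic length overlaps the opposite-strand gene Wdr61.

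Class B was headed by Dnajb6 and Dnajb11. Dnajb6, a suppressor of protein aggregation, had 210.15, 211 and 208 TPM. Dnajb11, a BiP partner in the endoplasmic reticulum, had 131, 132 and 138 TPM, and Dnajb12, a J-domain protein of the same organelle's membrane, had 42.6, 46.8 and 47.8 TPM. Dnajb6 was clearly separated from Dnajb11 in every library. Dnajb1, Dnajb9, another BiP partner (32.6 ± 1.71 TPM), and Dnajb14 (11.9 ± 1.17 TPM) were lower, as were Dnajb5 (8.85 ± 1.009 TPM) and Dnajb2 (8.18 ± 1.37 TPM).

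Dnajb13, a J-domain gene known from sperm flagella and motile cilia, was detected at 45.95, 43.5 and 40.8 TPM, from 381 to 438 estimated reads per library. It lies on chromosome 7 from 100503011 to 100514815 in RefSeq (GRCm38.p6), and its convergent neighbour Ucp2, a mitochondrial carrier gene, stood at 1374 ± 55.4 TPM. RefSeq places 3381 bases between the genes, while in GENCODE M21 their exons overlap by 305 bases, 11.2% of the exonic length of Dnajb13. The part of Ucp2 reads in the Dnajb13 level was not tested.

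Class C, whose members share little beyond the J domain, had 25 of 25 genes detected, between Dnajc28 and Dnajc8. Dnajc8, a spliceosome-associated member, had 174, 177 and 171 TPM. Dnajc9, a histone co-chaperone linked to replication, had 142, 140.3 and 147 TPM, and Dnajc7, which binds both HSP70 and HSP90, had 138, 132 and 132 TPM. The ranges of Dnajc9 and Dnajc7 did not overlap. Dnajc5, the cysteine string protein of secretory vesicles, was at 105 ± 2.01 TPM, and Dnajc14 at 94.2 ± 0.802 TPM.

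By site, all 7 J-domain genes assigned here to the endoplasmic reticulum were detected, with a summed level of 421 ± 5.74 TPM. Genes given no site here, among them Dnajc14, Dnajc16, Dnajc18 and Dnajc25, are in none of the sums by site, which are therefore not complete. The 7 genes included Dnajc3, the inhibitor of eIF2 kinases (83.4 ± 2.87 TPM), the disulfide reductase gene Dnajc10 (72.9 ± 1.24 TPM) and Dnajc1 (40.7 ± 0.73 TPM). The 9 genes assigned to the cytosol summed to 668 ± 6.35 TPM. Among members tied to ribosomes, Dnajc2, the partner of Hspa14, was at 69.6 ± 0.982 TPM and Dnajc21 at 35.8 ± 0.821 TPM. In endocytic traffic, Dnajc13 was at 34.7 ± 1.86 TPM, while the neuronal clathrin-uncoating gene Dnajc6 was at 4.71 ± 0.638 TPM. Dnajc17, of the spliceosome, was at 9.39 ± 0.917 TPM.

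**Figure D4:**
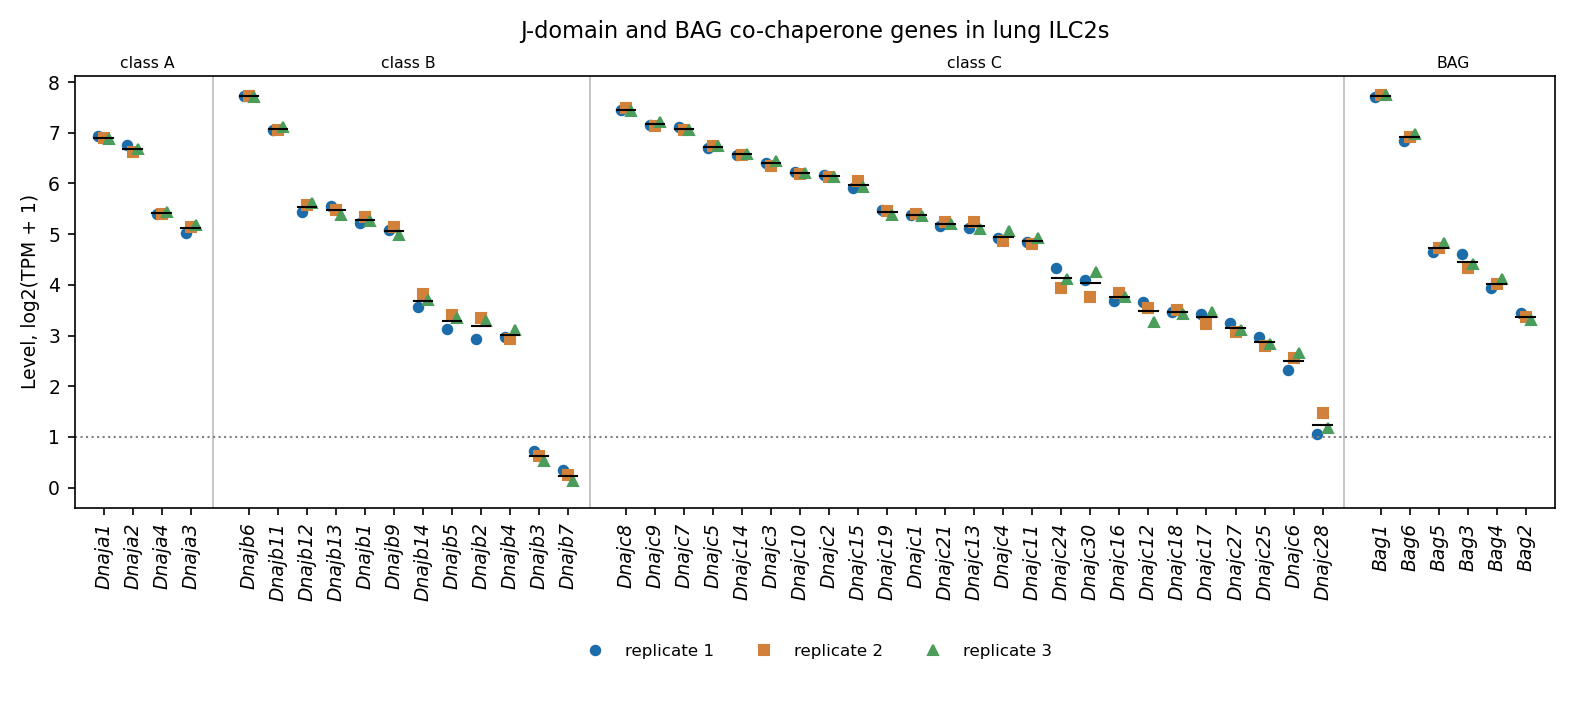
Levels of the J-domain genes of classes A, B and C and of the BAG genes, as log2(TPM + 1), with a point per library, a bar at the mean and a dotted line at 1 TPM. In class B, Dnajb3 and Dnajb7 lie below the line in all libraries; Dnajc24, Dnajc30 and Dnajc12 show the widest scatter between libraries among members of at least 10 TPM.

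Exchange factors of HSP70 were present from both families. In the HSP110 family, Hspa4 had 101, 99.8 and 108 TPM and Hspa4l had 72.7, 72.0 and 70.5 TPM, both above Hsph1. All 6 BAG genes were detected. Bag1, which also binds the survival factor BCL2, had 208, 213 and 213 TPM. Bag6, which guides tail-anchored and misfolded membrane proteins, had 114, 120.48 and 125 TPM, and Bag5 had 24.2, 25.4 and 27.2 TPM. Bag4 and Bag2 were lower, at 15.3 ± 1.04 and 9.34 ± 0.548 TPM. Hspbp1, an unrelated exchange factor of cytosolic HSP70, was at 31.98 ± 1.16 TPM.

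Small heat shock proteins, which hold unfolded clients without ATP and are abundant in muscle and lens, were the family with the lowest levels, with 2 of 7 genes detected. Hspb11, a component of intraflagellar transport, had 37.8, 37.3 and 34.0 TPM, and Hspb6 had 3.67, 4.27 and 3.98 TPM. Hspb9 had 0.35, 0 and 1.23 TPM, and Hspb1, one of the main heat-induced genes of many cells, had 1, 1 and 0 estimated reads. Hspb1 shares 48.8% of its 50-base words with the pseudogene Hsp25-ps1, and none with another listed gene. The part of this sharing in its low count was not tested. The non-member Cryab, a small heat shock protein of the lens, was at 0.5 ± 0.128 TPM.

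Heat shock factor genes were detected in 3 of 4 cases. Hsf1, the factor that drives the heat shock response, had 47.9, 50.8 and 51.1 TPM. Hsf2, which acts mainly in development and forms complexes with Hsf1, had 24.2, 24.4 and 23.3 TPM. Hsf1 exceeded Hsf2 by 1.03 ± 0.0731 on the log2 scale, 2.04-fold on the TPM + 1 scale, in 3 of 3 libraries. Hsf4, the lens form, had 3.38, 4.26 and 4.34 TPM.

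The members varied between libraries about as much as other listed genes of their level. Among the 62 members of at least 10 TPM the median SD of log2(TPM + 1) was 0.05, against 0.054 for the 8262 listed genes of that level. The widest ranges were in Dnajc30, a mitochondrial member (16.1, 12.6 and 17.99 TPM), Dnajc24, needed for diphthamide synthesis (19.2, 14.3 and 16.2 TPM), and Dnajc12 (11.6, 10.6 and 8.67 TPM). They averaged 165, 182 and 122 estimated reads per library, in that order. Replicate 2 was lowest for Dnajc30 and Dnajc24 and replicate 3 for Dnajc12. Bag3, Dnajb14 (10.8, 13.1 and 11.9 TPM) and Dnajc4 (29.3, 28.3 and 32.3 TPM) came next. The exons of Dnajc30 overlap the opposite-strand gene Bud23 over 26.2% of their length.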

How the data were processed

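RNA sequencing libraries of sorted lung ILC2s (1 group, 3 libraries numbered as in their titles) were analysed from the authors' deposited gene table. Bowtie2 and RSEM 1.3.1 with genome build GRCm38.p6 were used per the submitters' processing notes, which give no settings; no source used here names the annotation. Per the file headers, the authors deposited TPM, FPKM, expected counts (estimated reads, not all whole) and normalised read counts, a depth-scaled signal equal to the expected count rounded up and multiplied by 1.00144, 1 and 0.997 in replicates 1, 2 and 3. TPM was used for levels, log2(TPM + 1) for differences, and the expected counts for depth and counting intervals.

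Contrasts were differences within a library, with the mean, the SD and an exact sign-flip test over libraries. The members, lists and contrasts were chosen with earlier results of these data known. Any member may be named; values per library are given for genes of the contrasts, CCT subunits, the 3 highest of each family and the 6 most variable. Of non-members, up to 4 highest and 2 undetected genes per list are named; others are listed marker genes, overlapping neighbours or genes said to be named after their values were seen. All 90 members matched RefSeq gene IDs. Words of 50 bases were compared in the sense direction of GENCODE M21 transcripts, which use GRCm38. Python 3.11.15, pandas 2.3.3, scipy 1.17.1 and matplotlib 3.10.9 were used. Calculation of replicate ratios and detection calls was tried on simulated libraries. The contrasts, the sign-flip test and the sequence searches were not. Depth limits the low genes most: Hspa1a rests on 30.4 to 48.3 estimated reads per library.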

Additional observations from a re-analysis of the deposited data

How the results depend on the processing

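Alternatives were a pseudocount of 0.1, FPKM, depth-scaled expected counts (CPM, not divided by length), other detection levels and leaving out each library in turn. Of 57 recomputed contrast values, 1 reversed: Hspd1 minus Hspe1 was 0.83 with CPM, where the short Hspe1 transcript gives fewer reads. With CPM, the chaperone share was 1.17% and the CCT subunit ratio 3.02. With ribosomal protein genes left out of the total, the share was 1.32%. The log2 difference of the summed inducible HSP70 pair from Hspa8 lay between -8.998 and -8.40 across pseudocount, unit and library settings, and was -10.15 for Hspa1a alone and -9.13 for Hspa1b alone. Detected members numbered 70 to 77 over all settings, and 76 without any 1 library. With 3 libraries, leaving one out cannot move a mean by as much as its SD, so that comparison says nothing about stability; without replicate 3, the mean of Hspb9 was 0.175 TPM, against 0.527 TPM over all libraries. The sign-flip test used allows no p below 0.25 with 3 libraries and none below 0.5 with 2. No paired analysis was possible because there is only 1 group, and every contrast is already within a library.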

Other observations

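Chaperones and proteases of the mitochondria form a set that runs across the families above. Besides Hspa9, Hspd1 and Hspe1, the HSP90 relative Trap1 was at 58.7 ± 1.43 TPM (n = 3 libraries), and Grpel1 and Grpel2, exchange factors of mortalin, were at 19.8 ± 0.689 and 11.9 ± 0.46 TPM and were named after their values were seen. The 5 J-domain genes assigned here to mitochondria summed to 181 ± 2.66 TPM. Of these, Dnajc15 (61.4 ± 3.41 TPM) and Dnajc19 (42.3 ± 1.77 TPM), which belong to the protein import motor, and Dnaja3 (33.8 ± 1.92 TPM) were the highest. The matrix proteases were represented by Lonp1 (39.9 ± 2.22 TPM) and the ClpXP unfoldase gene Clpx (32.01 ± 2.74 TPM), and the disaggregase gene Clpb was at 7.94 ± 0.427 TPM. The extracellular chaperone gene Clu, by contrast, was at 0.52 ± 0.0866 TPM.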
